A study of Mus musculus with 4 samples.

Results

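The 40 genes described here form a module of the G2 and M phases of the cell cycle, the stretch in which a cell that has copied its DNA builds a spindle, separates its chromosomes and divides. They were given as a list of gene symbols, drawn up with earlier results of these data known, and all 40 were present among the 31053 genes of the deposited matrices. The study profiled single TS1 Tg CD4 T cells sorted from mice with graft-versus-host disease (GVHD), a reaction of transplanted donor T cells against the tissues of the recipient. Spleen, colon, skin and the intraepithelial and lamina propria compartments of the small intestine were taken 4 weeks after transplantation, labelled by tissue with hashing antibodies and pooled for droplet sequencing with 3' chemistry of 10x Genomics. There are 2 replicates, each with an expression and a hashtag library. All cells share the TS1 transgene, a T cell receptor of a single specificity, on a BALB/c RAG2-/- background, which prevents rearrangement of other receptors. All cells are from GVHD mice, and there is no untreated group. Tissues and, where several were used, animals are mixed in each library, and the labels do not say whether the replicates came from separate animals. Every p-value below therefore measures only how far a difference between groups of cells varied between these 2 libraries, which may be technical. The edgeR test also draws on the spread shared by all genes.

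The expression libraries held 89427990 and 108082997 UMIs (unique molecular identifiers, which count each captured RNA molecule once). Cells were kept with at least 1000 UMIs, at least 500 genes and at most 10% mitochondrial UMIs, and 18972 of 19020 kept cells of replicate 1 and 15857 of 15898 of replicate 2 had a UMI of Cd3e, Cd3d or Cd3g, the T cell receptor complex genes. Every such cell with 1500 or more UMIs was thinned to 1500 UMIs drawn at random, which left 15260 and 14839 cells and left out 3712 and 1018 shallower ones. Unless stated otherwise a level is the count of a gene over these thinned cells per 1000000 UMIs (CPM), and a pair of values is given in the order replicate 1, replicate 2. T cell receptor genes were thus present in nearly every cell, while 162 and 154 of the thinned cells carried at least 1% of their UMIs in a marker list of another cell type, 96 and 85 of them in neutrophil markers. The libraries also shared 578 cell barcodes where 44.3 would be shared by chance, and in 509 of the 599 shared pairs of kept cells the copies differed at least 10-fold in UMIs. After thinning 36 and 96 of the smaller copies remained. Without them 26 members rose and 1 fell with Gzma, where 2591 and 2683 of 11362 genes did. With Itgae 15 fell (1752 of 11265 genes), with Tcf7 20 (515 of 11265) and with Il10 1 (360 of 11415). With Il13 or Csf2 6 fell and 1 rose, where 785 and 1189 of 11382 genes did. These member counts are close to those given below for all cells.

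Entry into mitosis is driven by cyclin-dependent kinase 1 bound to a B-type cyclin, after which the Aurora and Polo kinases, the kinetochore and the spindle motors align the chromosomes, and the anaphase-promoting complex marks securin and the cyclins for destruction so that the chromosomes part. Transcription of these genes is held off in resting cells by the DREAM complex and switched on late in the cycle by the MuvB complex with B-Myb and FOXM1. DREAM and its partners are known to bind the cell cycle genes homology region (CHR), whose core letters are TTTGAA, and NF-Y binds nearby CCAAT boxes. In T cells the module marks clonal expansion after stimulation of the receptor.

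Promoters of 34 of the 40 genes were found in the RefSeq table of mouse promoters (GRCm38.p6, 250 bases before to 50 bases after the start). Ccna2, Aurkb, Spc24, Kif20a, Tpx2 and Stmn1 were not matched. The letters TTTGAA, read on both strands (as TTCAAA on the other), occurred in 25 of the 34 promoters (73.5%) against 18.1% of all 27025 promoters in the table. CCAAT, read also as ATTGG, occurred in 26 (76.5%) against 37.9%, and both occurred in 22 (64.7%) against 7.12%. Neither occurred in the windows of 5, Birc5, Nuf2, Nusap1, Pttg1 and Tacc3. A match is a description of letters and not a measured binding site. Shown here are the promoters of 5 members with both motifs, the cyclin B2, cyclin-dependent kinase 1, Cdc20, topoisomerase and ubiquitin-conjugating genes. The window at the RefSeq start of Pttg1, which has neither motif, is shown as well. That Pttg1 window lies inside the GENCODE M21 gene (chr11:43420250-43426251), whose own start is upstream of it and was not searched. Each runs 5' to 3' on the strand of the gene from 220 bases before to 30 bases after the start, with both motifs in capitals.
Ube2c (chr2:164769709-164769958, plus strand): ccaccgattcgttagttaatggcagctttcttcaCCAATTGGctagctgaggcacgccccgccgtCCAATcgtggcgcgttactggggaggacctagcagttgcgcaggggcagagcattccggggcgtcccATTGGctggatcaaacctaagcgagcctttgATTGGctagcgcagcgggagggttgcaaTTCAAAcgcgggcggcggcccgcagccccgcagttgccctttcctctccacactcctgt
Ccnb2 (chr9:70421525-70421774, minus strand): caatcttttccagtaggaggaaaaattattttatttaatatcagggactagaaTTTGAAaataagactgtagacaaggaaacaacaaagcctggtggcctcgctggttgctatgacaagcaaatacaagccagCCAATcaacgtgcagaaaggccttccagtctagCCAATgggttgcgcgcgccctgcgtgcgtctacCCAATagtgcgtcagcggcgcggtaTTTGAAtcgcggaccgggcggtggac
Cdk1 (chr10:69352883-69353132, minus strand): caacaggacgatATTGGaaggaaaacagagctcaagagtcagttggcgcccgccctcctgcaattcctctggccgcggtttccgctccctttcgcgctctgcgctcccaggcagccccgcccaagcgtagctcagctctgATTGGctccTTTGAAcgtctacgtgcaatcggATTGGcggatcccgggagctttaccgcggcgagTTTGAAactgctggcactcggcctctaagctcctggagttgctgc
Cdc20 (chr4:118437314-118437563, minus strand): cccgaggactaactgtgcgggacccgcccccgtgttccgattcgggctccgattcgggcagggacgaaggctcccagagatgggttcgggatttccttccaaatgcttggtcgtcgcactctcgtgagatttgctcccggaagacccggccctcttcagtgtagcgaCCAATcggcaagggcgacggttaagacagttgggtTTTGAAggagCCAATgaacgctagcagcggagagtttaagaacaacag
Top2a (chr11:99024160-99024409, minus strand): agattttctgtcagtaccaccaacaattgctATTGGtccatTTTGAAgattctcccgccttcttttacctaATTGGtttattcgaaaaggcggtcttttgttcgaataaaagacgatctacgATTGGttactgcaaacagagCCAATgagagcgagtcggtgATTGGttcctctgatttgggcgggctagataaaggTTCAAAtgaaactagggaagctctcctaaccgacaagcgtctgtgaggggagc
Pttg1 (chr11:43425952-43426201, minus strand): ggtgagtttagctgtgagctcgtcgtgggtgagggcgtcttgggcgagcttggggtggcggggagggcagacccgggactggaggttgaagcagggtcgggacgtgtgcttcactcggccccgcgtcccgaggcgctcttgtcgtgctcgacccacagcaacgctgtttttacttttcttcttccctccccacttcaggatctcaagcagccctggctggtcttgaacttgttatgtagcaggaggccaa
In this window the Ube2c promoter held 1 TTTGAA and 5 CCAAT matches, with TTTGAA 29 bases before the start, and the Top2a promoter held 2 and 5. In Cdc20 the single TTTGAA lay 18 bases before the start with a CCAAT on each side of it.

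The 40 genes together made up 0.173% and 0.133% of the UMIs, or 1732 and 1328 CPM. Each of the 40 was higher in replicate 1, with ratios of replicate 2 to replicate 1 between 0.544 and 0.918. UMI counts from 3' chemistry take 1 tag per molecule and do not grow with transcript length, so levels are compared between genes on this scale only. Stmn1 (chr4:134468320-134473843 on GRCm38, the GENCODE M21 gene), which encodes the microtubule-destabilising protein stathmin, was the highest member at 305 and 225 CPM and was detected in 22.6% and 17.3% of the cells. Top2a (chr11:98992943-99024189), the topoisomerase that untangles sister chromatids, followed at 122 and 111 CPM. Cenpa (chr5:30666777-30674830), the histone H3 variant of the centromere, was at 110 and 88.9 CPM, and Ube2c (chr2:164769898-164778822), the ubiquitin-conjugating enzyme of the anaphase-promoting complex, at 107 and 71.9 CPM. The values of Cenpa and Ube2c overlap across the libraries, so their order is not resolved, while Stmn1 and then Top2a stood above both.

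Pttg1 (securin, the inhibitor of the protease that cuts cohesin) at 99.3 and 77.5 CPM, Birc5 (survivin, a chromosomal passenger protein) at 90.3 and 66.3 CPM, and Cks2 (an adaptor of cyclin-dependent kinases) at 90.1 and 80.1 CPM formed the next group, again with overlapping ranges. Cks1b, the paralogue of Cks2, was at 59.5 and 42.5 CPM. These 8 genes were the members with a mean of at least 50 CPM. Below them stood Prc1 (the protein that bundles midzone microtubules, 51.6 and 39.2 CPM), Mki67 (the proliferation antigen Ki-67, 44.9 and 41.2 CPM), Cdca8 (borealin, 52.2 and 36.9 CPM) and Nusap1 (a spindle-associated protein, 49.3 and 35.8 CPM). Ccnb2, Ccna2 and Cdk1 were at 46.4 and 31.1, 43.3 and 26.5, and 42.1 and 29.7 CPM, whereas Ccnb1, the other B-type cyclin gene, was at 13.1 and 9.43 CPM. The kinases were scarce. Aurkb was at 20.1 and 14 CPM, Plk1 at 12.7 and 8.45, Aurka at 9.65 and 8.36, and the checkpoint kinases Bub1, Bub1b and Ttk ran from 9.0 down to 2.88 CPM. Anln, which encodes the cytokinesis scaffold anillin, had 4.72 and 3.82 CPM and was detected in 0.695% and 0.546% of the cells. By role, the 7 spindle and microtubule genes held 28.4% and 27.6% of the module's UMIs, 17% and 16.5% fell to the 6 cyclin, kinase and adaptor genes, and the 6 mitotic kinases held 3.63% and 3.39%.

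**Figure D1:**
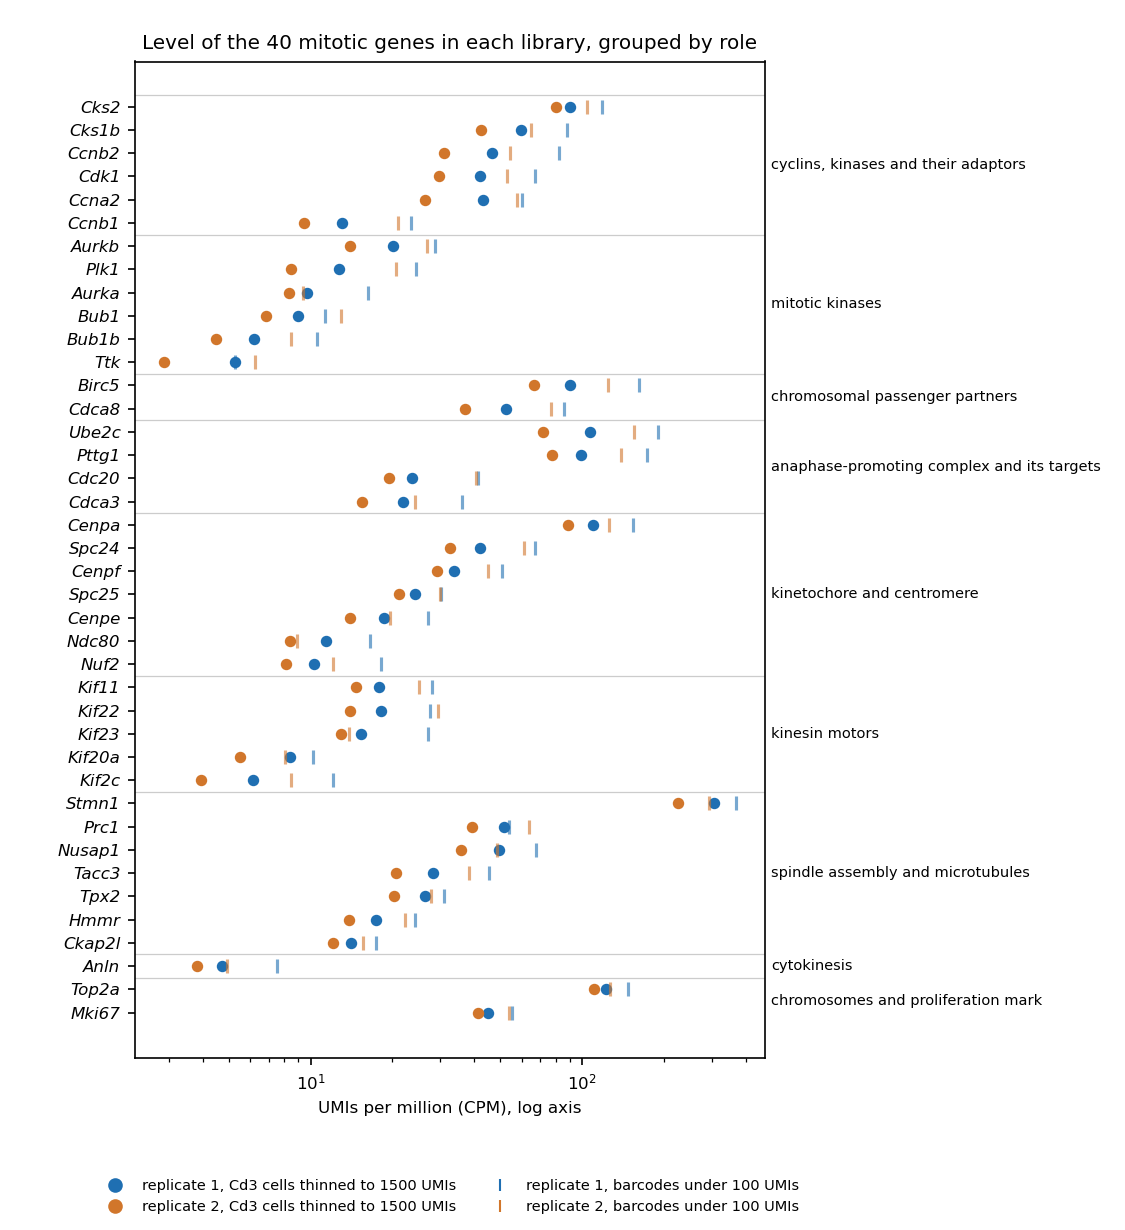
Level of each of the 40 genes in CPM (log axis) in the thinned Cd3 cells of replicate 1 (blue dots) and replicate 2 (orange dots), grouped by role, with the level in barcodes under 100 UMIs as vertical ticks of the same colour. Stmn1 is the highest at 305 and 225 CPM, and at this thinned depth no gene exceeds its level in the near-empty barcodes in both libraries.

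RNA free in the droplet fluid was read from barcodes under 100 UMIs, which hold mostly such RNA. The 40 genes made up 2509 and 2082 CPM there, more than in the thinned cells. After thinning 0 of the 40 members exceeded their level in these barcodes in both libraries. Without thinning, where deep cells weigh more, some did, such as Stmn1 (468 and 375 against 369 and 293 CPM) and Top2a (178 and 160 against 147 and 127 CPM). Others did not, such as Ube2c (176 and 126 against 190 and 155 CPM). Free RNA can put single UMIs of these genes into any cell. At least 1 module UMI was found in 60.8% of the cells of replicate 1 (exact binomial 95% interval 60.0 to 61.5%) and 60.3% of those of replicate 2 (59.6 to 61.1%). Intervals here cover counting error only. Of cells carrying at least 1% of UMIs in monocyte, macrophage or dendritic markers, 45.5% (30.4 to 61.2%) and 55.3% (43.4 to 66.7%) had such a UMI. Their median depths were 9571.5 and 10517 UMIs before thinning. As 15.9% and 18.4% of them had at least 5 module UMIs, they do not give the rate from free RNA alone. Because of the free RNA the share with a single UMI is not read as a share of cells expressing the module. Without Stmn1, Cks1b, Cks2 and Pttg1, which also have roles outside mitosis, it was 49.0% and 47.0%.

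The module UMIs were concentrated in few cells. At least 5 of the 1500 UMIs were module UMIs in 2414 cells (15.8%, 15.2 to 16.4%) and 1296 cells (8.73%, 8.28 to 9.20%), and these cells, called mitotic-high below, held 71.4% and 59.4% of all module UMIs. At 20 or more UMIs there were 346 and 276 cells (2.27% and 1.86%) with 22.6% and 23.8% of the module UMIs, and the single highest cells had 50 and 42 module UMIs. The mitotic-high class is a range of a score, not a cell type and not a phase of the cycle. Near the threshold, 1844 and 1302 cells had between 3 and 6 module UMIs. All 50 DNA replication genes tested were also higher in this class, as given below. Its name therefore does not mean that its cells were in mitosis. A mitotic-high cell had UMIs of 7 and 8 different members at the median. Without the smaller copies of shared barcodes the share of mitotic-high cells was 15.7% and 8.25%.

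Members differed in how closely they marked such cells. Of the cells with a UMI of Hmmr, which encodes a receptor for hyaluronan that sits on the spindle, 80.7% and 78.1% had at least 5 UMIs of the other 39 members. For Bub1 it was 80.6% and 76.2%, and for the Polo-like kinase gene Plk1 77.9% and 71.4%. For Cks2 it was 38.3% and 26.8%, for Cenpa 40.4% and 24.9%, for Pttg1 42.0% and 29.7% and for Stmn1 44.8% and 33.5%. Hmmr and Bub1 were among the scarcer members and Cks2, Cenpa, Pttg1 and Stmn1 among the most abundant. Across the thinned cells the correlation between pairs of members had a median of 0.122 over 780 pairs in replicate 1 and 0.125 over 741 pairs in replicate 2. The strongest pairs were Birc5 with Stmn1 (0.40 and 0.40), Stmn1 with Top2a (0.40 and 0.39) and Birc5 with Ube2c (0.39 and 0.38). These are descriptions over cells of the same libraries at one depth, and cells are not replicates.

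Mitotic-high cells were deeper than others. Before thinning their median was 4028 and 9260.5 UMIs, against 3281.5 and 3841.5 in cells with 0 module UMIs. In the cells with 20000 or more UMIs, 78.2% (70.9 to 84.4%) and 58.6% (51.3 to 65.7%) were mitotic-high after thinning, and 53.6% and 40.6% of those between 10000 and 20000. Between 2500 and 5000 UMIs the share was 6.92% and 2.17%. Below 2500 UMIs the libraries parted, with 17.3% (16.3 to 18.4%) of 4940 cells in replicate 1 and 5.68% (4.73 to 6.75%) of 2131 cells in replicate 2. Those shallow mitotic-high cells numbered 857 in replicate 1 and 121 in replicate 2, and 17 and 67 of them were smaller copies of shared barcodes. In replicate 1, 67.6% of them had Gzma at 1% or more of their UMIs, against 33.9% in replicate 2. Among cells below 2500 UMIs with 0 module UMIs it was 24.2% and 10.9%. From 5000 UMIs it was 44.6% and 46.4% of mitotic-high cells, against 51.2% and 51.1% of cells with 0 module UMIs. Compared with the mitotic-high cells from 5000 UMIs of the same library, the shallow ones were lower in every member in replicate 1. Their median was 7 against 13 module UMIs, and in replicate 2 it was 9 against 13. In replicate 1 Stmn1 was at 972 against 1867 CPM, Mki67 at 109 against 286 and Top2a at 312 against 658 CPM. In replicate 2 Mki67 was at 298 against 271 CPM and Top2a at 694 against 634, while Stmn1 (782 against 1874 CPM), Birc5 (386 against 582 CPM) and Pttg1 (281 against 355 CPM) were lower. No doublet caller was run, and the part of doublets in the deepest cells was not tested.

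**Figure D2:**
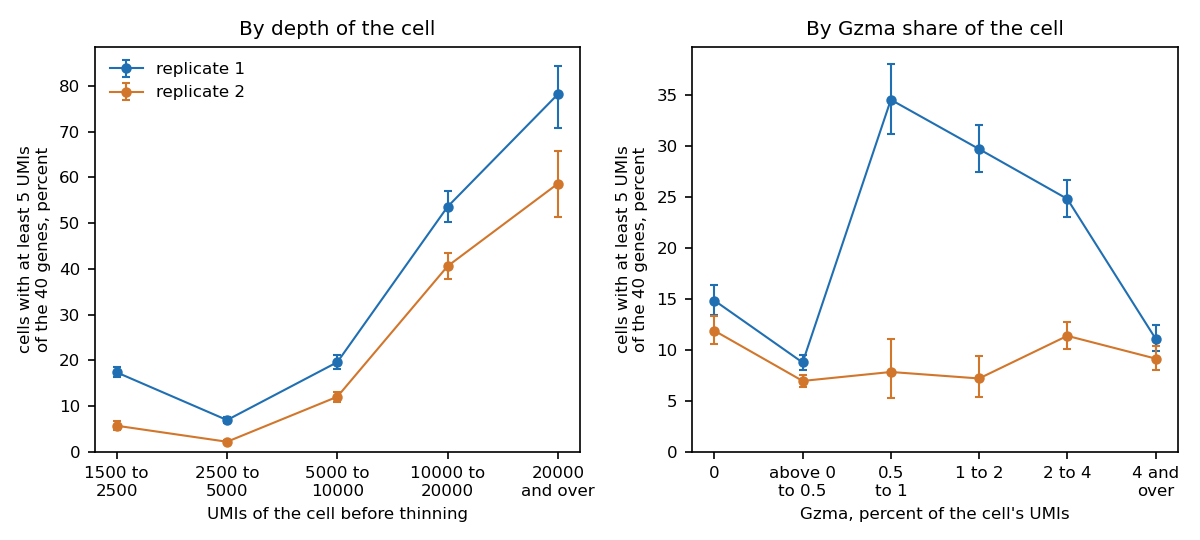
Percent of cells with at least 5 module UMIs of 1500 (exact binomial 95% intervals) by the depth of the cell before thinning (left) and by the share of its UMIs that are Gzma (right), for replicate 1 (blue) and replicate 2 (orange). The share reaches 78.2% and 58.6% in the deepest cells, and replicate 1 alone has 34.5% at a Gzma share of 0.5 to 1%.

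The first question was whether the module differs with Gzma, the gene of the protease granzyme A that cytotoxic lymphocytes release. Cells with Gzma at 1% or more of their UMIs (6244 and 5419 cells) were compared with the others (9016 and 9420). The module was at 1990 and 1442 CPM in the Gzma-high class and at 1553 and 1262 CPM in the Gzma-low class, a log2 ratio of 0.36 and 0.19 (mean 0.28, SD 0.12, n = 2 libraries). Mitotic-high cells made up 20.6% against 12.5% in replicate 1 and 9.84% against 8.10% in replicate 2. Before thinning the median depth was 3349.5 and 4585 UMIs in Gzma-high cells and 3029 and 3472 in the others. A summed level cannot tell fewer mitotic cells from less mitotic RNA per cell, here or in the splits below. Tissue of origin and class cannot be told apart in any of them.

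By edgeR's quasi-likelihood test with the library as a block and Benjamini-Hochberg adjustment over all 11390 genes tested, 28 of the 40 members rose in Gzma-high cells, where 22.5% of all genes did, and 1 fell, where 23.4% did (45.9% in either direction). The median log2 fold change of the members was 0.40 and that of all genes 0.00. DESeq2 called 9 members, where it called 1706 of 11732 genes. The fit without the library block called 5, where it called 3418 of 11390 genes. Levels given per class for single genes are CPM of the UMIs that remain once the genes defining the split are taken out, and fold changes are from the fit. All 4 members around the anaphase-promoting complex rose, as did both passenger partners, 6 of 7 spindle genes, 5 of 7 kinetochore genes, 4 of 6 kinases, 4 of 6 cyclin and adaptor genes and 2 of 5 kinesins.

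Pttg1 was at 122 and 97.7 CPM in Gzma-high cells and at 87.1 and 68.1 CPM in the others, a log2 fold change of 0.49 (SE 0.061, adjusted p = 5.11e-09 in edgeR). The classes did not overlap across the libraries, which held for 20 of the 40 members and 68.1% of all genes tested. Birc5 was at 113 and 77.7 CPM against 77.6 and 61.6 CPM (0.44, SE 0.065, adjusted p = 2.75e-07 in edgeR), with 77.7 CPM in the lower Gzma-high library and 77.6 CPM in the higher Gzma-low one. Ube2c was at 133 and 86.3 CPM against 92.6 and 65.7 CPM (0.46, SE 0.062, adjusted p = 4.57e-08 in edgeR), higher in both libraries although the pooled ranges overlap. Smaller rises were found for Cks1b (72.5 and 46.6 against 52.4 and 41.2 CPM, log2 0.33), Cenpa (126 and 96.6 against 102 and 86.7 CPM, 0.23) and Top2a (132 and 121 against 119 and 108 CPM, 0.16, edgeR adjusted p = 0.0238). The largest fold changes were those of Spc24 and Spc25, subunits of the NDC80 complex that grips microtubules at the kinetochore. Spc24 was at 59.0 and 43.4 against 31.7 and 27.4 CPM (0.78, SE 0.085) and Spc25 at 33.6 and 27.4 against 18.7 and 18.1 CPM (0.72, SE 0.10). Ndc80 and Nuf2, the other 2 subunits of that complex, had log2 fold changes of 0.27 and 0.33 that missed the threshold.

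Kif23, the motor of the centralspindlin complex at the cleavage furrow, was the member that fell: 14.1 and 10.2 CPM against 16.6 and 14.8 CPM, a log2 fold change of -0.37 (SE 0.14, adjusted p = 0.0226 in edgeR). Mki67 (log2 fold change -0.01), Prc1 (0.03) and Cks2 (-0.12) missed the threshold. Outside the module, 34 of 59 other mitotic genes rose and 1 fell, and 37 of 50 DNA replication genes rose and 0 fell. Among these, the replication factor C and replication protein A genes Rfc2 (192 and 187 against 91.4 and 84.3 CPM, log2 1.10) and Rpa1 (1.25) and the centromere gene Cenpn (1.37) were among those that rose most. Of the DREAM and MuvB regulators 8 of 22 rose, among them Mybl2, the gene of B-Myb (8.75 and 6.91 against 4.44 and 3.26 CPM, log2 1.02), and 3 fell, among them Lin54 (-0.69), whose product binds the CHR. Of the inhibitors and quiescence genes 4 of 18 rose and 7 fell, with Klf2 (-1.70) and the gene of p21, Cdkn1a (-1.67), among the falls and Foxo3 (1.18) among the rises.

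The difference with Gzma was smaller in replicate 2, where it changed sign without the deepest cells. By steps of the Gzma share, mitotic-high cells in replicate 1 made up 8.75% of cells with Gzma above 0 and below 0.5% of UMIs, 34.5% between 0.5% and 1%, 29.7% between 1% and 2%, 24.8% between 2% and 4%, and 11.1% at 4% or more. In replicate 2 the same steps gave 6.94%, 7.82%, 7.19%, 11.4% and 9.14%. Of the cells with 0 Gzma UMIs (2373 and 2148), 14.8% and 11.9% were mitotic-high. In replicate 1 these cells thus exceeded the step below 0.5% and the step at 4% or more. In replicate 2 they exceeded every step, though their interval (10.5 to 13.3%) overlapped that of the 11.4% step (10.1 to 12.7%). In replicate 1 the steps with the highest shares were also the shallowest, with median depths of 2135 and 2124.5 UMIs at 0.5% to 2%, where replicate 2 had 4160.5 and 4614. Without the 8% of cells with the most UMIs in each library the module log2 ratio was 0.30 in replicate 1 and -0.17 in replicate 2. At that setting 6 members rose and 2 fell, where 2095 and 2261 of 11196 genes did. Thinning left out 2403 of 8611 Gzma-high cells in replicate 1 and 241 of 5659 in replicate 2. Markers of neutrophils were lower in the Gzma-high class (725 and 662 against 2227 and 3786 CPM). Without the cells rich in other types' markers 29 members rose and 1 fell, where 2519 and 2607 of 11257 genes did. All 7 erythroid markers tested fell as well (summed 22.1 and 34.3 against 174 and 207 CPM). The mitochondrial share was 2.66% and 2.36% in Gzma-high cells against 3.46% and 3.32%, and 15 of 16 immediate early and heat shock genes fell. Their part in the result was not tested.

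The second split asked whether the module differs with Itgae, the gene of the integrin chain CD103 that holds T cells at epithelia. Cells with an Itgae UMI (3904 and 3797) had the module at 1536 and 1161 CPM and the others (11356 and 11042) at 1799 and 1385 CPM, a log2 ratio of -0.23 and -0.25 (mean -0.24, SD 0.019, n = 2 libraries). Mitotic-high cells were 14.2% against 16.4% and 6.40% against 9.54%. In edgeR 12 of 40 members fell, where 13.3% of the 11281 genes tested did, and 0 rose, where 11.0% did (24.3% in either direction). The median log2 fold change was -0.22. DESeq2 called 1 member, where it called 855 of 10334 genes. The fit without the block called 0, where it called 1124 of 11281 genes.

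Stmn1 was at 271 and 187 CPM in Itgae-positive cells and at 317 and 238 CPM in the others (log2 fold change -0.27, SE 0.041, adjusted p = 0.000575 in edgeR). It was lower in both libraries by less than the gap between libraries. Ube2c (90.9 and 61.5 against 112 and 75.5 CPM, -0.29), Cks1b (53.3 and 33.4 against 61.6 and 45.6 CPM, -0.30), Cks2 (77.1 and 72.2 against 94.6 and 82.8 CPM, -0.24) and Top2a (104 and 101 against 128 and 114 CPM, -0.23) fell as well. The others that fell were Ccna2, which encodes cyclin A2 (-0.47), the microtubule genes Prc1 (-0.40) and Ckap2l (-0.51), Kif23 (-0.55), Anln (-0.88), Cenpf (-0.37) and Mki67 (-0.37). Of the 6 mitotic kinases and the 2 passenger partners 0 passed the threshold. Thus Mki67, Prc1, Cks2 and Anln fell with Itgae and missed the threshold with Gzma, and Spc24, Spc25, Pttg1 and Birc5 rose with Gzma and missed it with Itgae; the difference between these splits, whose positive classes share cells, was not tested. Among other genes, 7 of 59 mitotic genes fell, such as the alpha-tubulin gene Tuba1b (-0.37) and the phosphatase gene Cdc25b (-0.58), and 3 rose, Cenpn (0.59) among them. Of 50 replication genes 3 rose and 6 fell, with Rpa1 (0.69) and Rfc2 (0.56) again higher. Of 13 G1 cyclins and kinases 1 rose, the D-type cyclin gene Ccnd2 (0.77), and 4 fell (median -0.18). Of 18 inhibitors and quiescence genes 3 rose and 6 fell, Klf2 (-1.37) among the falls.

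The Itgae classes overlap with the Gzma classes, so the split was repeated within them. Among Gzma-high cells the module was at 1629 and 1175 CPM with Itgae against 2328 and 1779 CPM without (log2 ratio -0.51 and -0.60), and mitotic-high cells were 15.4% against 25.6% and 6.55% against 14%. Among Gzma-low cells the module was at 1216 and 1107 against 1590 and 1276 CPM (-0.39 and -0.20). The module was thus lower with Itgae in both libraries of both classes, and by more within the classes than in the pooled cells of replicate 1. With classes set on all UMIs and no thinning, which also made 6982 and 6600 cells positive, the log2 ratio was 0.22, and 33 members rose and 0 fell. At that setting 2911 of 13253 genes rose and 3172 fell. Neutrophil markers were at 662 and 472 CPM with Itgae and at 1939 and 3393 CPM without. Without the cells rich in other types' markers the mean log2 ratio was -0.236. At that setting 15 members fell and 0 rose, where 1750 and 1530 of 11169 genes did. The mitochondrial share was 2.84% and 2.67% against 3.23% and 3.07%, and 15 of 16 immediate early and heat shock genes fell. The part of the mitochondrial share and of these genes in the result was not tested.

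The third split took Tcf7, the gene of the transcription factor TCF-1 of naive and stem-like T cells. Tcf7-positive cells (913 and 875) had the module at 1221 and 903 CPM and the others at 1764 and 1354 CPM (log2 ratio -0.53 and -0.59, mean -0.56, SD 0.038, n = 2 libraries). Mitotic-high cells were 9.09% (7.31 to 11.1%) against 16.2% and 4.00% (2.80 to 5.52%) against 9.03%. Of the members 18 fell, where 4.30% of 11275 genes did, and 0 rose, where 3.80% did (8.10% in either direction). The median log2 fold change was -0.65, and 39 of 40 were lower in both libraries. DESeq2 called 4 of the 35 members it tested, where it called 292 of 8238 genes. The fit without the block called 0 members, where it called 211 of 11275 genes.

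Birc5 had 49.7 and 33.5 CPM in Tcf7-positive cells and 92.8 and 68.4 CPM in the others (log2 fold change -0.97, SE 0.13, adjusted p = 1.15e-07 in edgeR), without overlap of the classes. Overlap was absent for 28 of the 40 members and 48.1% of all genes tested. Stmn1 had 201 and 152 against 312 and 230 CPM (-0.63, SE 0.069, adjusted p = 1.04e-09 in edgeR), and Ube2c 64.3 and 52.6 against 110 and 73.1 CPM (-0.66). The falls of Cks1b (43.8 and 30.5 against 60.5 and 43.3 CPM, -0.50), Pttg1 (86.2 and 50.3 against 100 and 79.2 CPM, -0.42) and Top2a (92.1 and 89.2 against 124 and 112 CPM, -0.40) were smaller. Both passenger partners fell (Cdca8 by -0.94), as did 5 of the 6 cyclin, kinase and adaptor genes (Ccnb2 -0.98, Cdk1 -0.77), and of the 6 mitotic kinases 0 did, although their median log2 fold change was -0.72. Cenpa (105 and 74.0 against 110 and 89.8 CPM, -0.18, edgeR adjusted p = 0.367) and Prc1 (51.2 and 35.1 against 51.6 and 39.4 CPM, -0.09, edgeR adjusted p = 0.787) missed the threshold at levels where Birc5 and Cdca8 passed it. Beyond the module 12 of 59 mitotic, 19 of 50 replication and 4 of 20 histone genes fell and 0 rose, such as the histone chaperone gene Asf1b (-1.07), the replication gene Gins2 (-1.23) and Hist1h2ap (-1.21). The quiescence factor Klf2 was higher by 1.30. Within Gzma-low cells the module log2 ratio was -0.52 and -0.51. Within Gzma-high cells, with 133 and 77 Tcf7-positive cells, it was -0.09 and -0.74, so the libraries did not agree there. Before thinning the median depth was 2938 and 3399 UMIs with Tcf7 and 3147 and 3895 without. Without the 8% of cells with the most UMIs the module log2 ratio was -0.42 and -0.37. At that setting 8 members fell, where 435 of 11143 genes did. Neutrophil markers were at 134 and 610 CPM with Tcf7 and at 1707 and 2773 CPM without. Without the cells rich in other types' markers 20 members fell, where 505 of 11177 genes did. Of 6 erythroid markers 3 rose, with the summed list at 727 against 72.9 CPM in replicate 1 but 48.0 against 150 CPM in replicate 2. The mitochondrial share was 3.50% and 3.38% against 3.11% and 2.94%, and their part in the result was not tested.

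**Figure D3:**
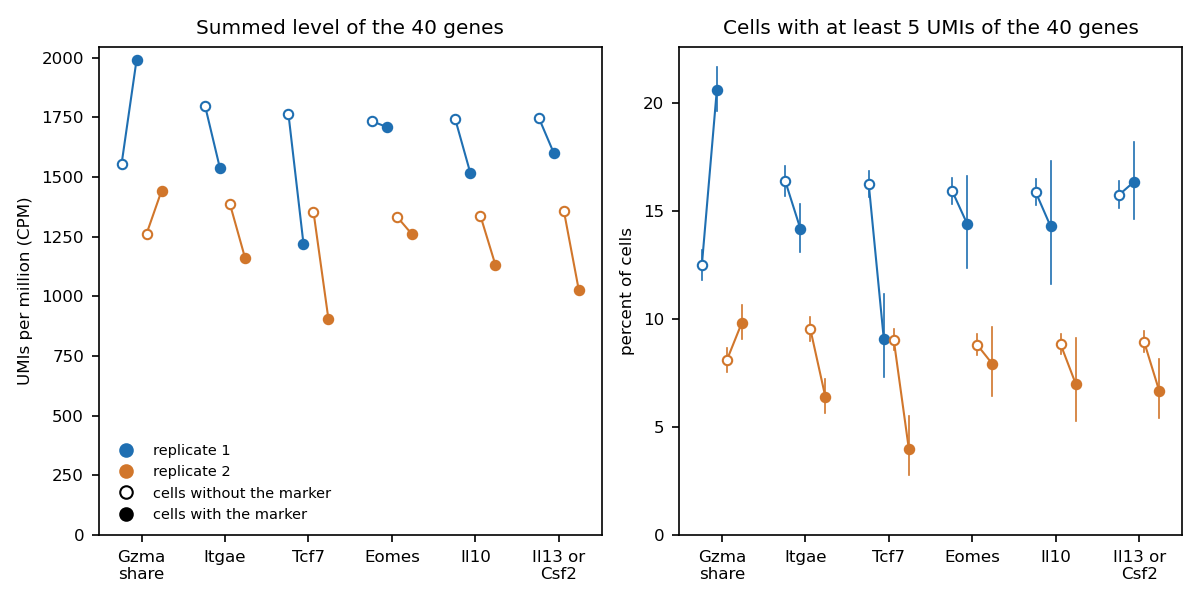
Summed level of the 40 genes (left, CPM) and percent of cells with at least 5 module UMIs (right, exact binomial 95% intervals) in cells without (open) and with (filled) each marker, joined within replicate 1 (blue) and replicate 2 (orange). The module is higher with Gzma and lower with Itgae, Tcf7, Il10 and Il13 or Csf2 in both libraries, and the Tcf7 step, from 1764 to 1221 and from 1354 to 903 CPM, is the widest in replicate 1 and in replicate 2.

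Eomes, the gene of a T-box factor of cytotoxic and memory T cells, gave no called member. Eomes-positive cells (1090 and 1173) had the module at 1709 and 1260 CPM and the others at 1733 and 1334 CPM, a log2 ratio of -0.02 and -0.08. In edgeR 0 of 40 members passed the threshold, where 9.62% of the 11285 genes tested did (4.44% higher and 5.18% lower), 5 had an unadjusted p under 0.05, and DESeq2 also called 0. Top2a was at 132 and 130 CPM with Eomes and 121 and 109 without (log2 0.20, edgeR adjusted p = 0.104), and Mki67 at 58.1 and 46.1 against 43.8 and 40.8 CPM (0.31, edgeR adjusted p = 0.111). Stmn1 went the other way, with a log2 fold change of -0.13 (SE 0.060). Of 59 other mitotic genes 1 rose and 2 fell, and of 50 replication genes 1 rose and 3 fell. The chromatin genes Hmgb2 (0.12) and H2afz (-0.13) moved little, and Ccnd2 (-0.58) and Cdkn1a (-0.96) fell. Neutrophil markers were at 149 and 908 CPM with Eomes and at 1725 and 2795 CPM without. Without thinning all 40 members rose with Eomes (log2 ratio 0.51), where 1555 of 13173 genes did.

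Il10, the gene of an immunosuppressive cytokine, marked 616 and 728 cells. Their module level was 1516 and 1132 CPM against 1741 and 1338 CPM (log2 ratio -0.20 and -0.24, mean -0.22, SD 0.030, n = 2 libraries). In edgeR 0 of 40 members passed, where 7.23% of 11429 genes did (4.07% higher and 3.16% lower), 6 had an unadjusted p under 0.05, and DESeq2 called 0 of the 19 it tested. Prc1 came nearest (37.9 and 24.8 against 52.1 and 39.9 CPM, log2 -0.50, edgeR adjusted p = 0.0752), while Cenpa pointed up (128 and 95.4 against 109 and 88.5 CPM, 0.24, edgeR adjusted p = 0.182). Neutrophil markers were at 579 and 1820 CPM with Il10 and at 1656 and 2688 CPM without, and the mitochondrial share was 2.83% and 2.71% against 3.14% and 2.98%. Without thinning the log2 ratio was 0.27, and 3 members rose and 0 fell, where 156 and 186 of 13176 genes did. With the classes of Gzma held apart, the log2 ratio was 0.18 and 0.26 in Gzma-high cells, from 150 and 82 Il10-positive cells, and -0.29 and -0.27 in Gzma-low cells. Ccnd2 was lower by a log2 change of -0.28 and the antiproliferative gene Btg1 higher by 0.37 in Il10-positive cells.

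Il13 and Csf2 encode a type 2 cytokine and the myeloid growth factor GM-CSF, and cells with a UMI of either (1675 and 1391) had the module at 1600.0 and 1026 CPM against 1748 and 1359 CPM (log2 ratio -0.13 and -0.41, mean -0.27, SD 0.20, n = 2 libraries). The spread between libraries was nearly as large as the mean, and mitotic-high cells were 16.4% against 15.8% in replicate 1 but 6.69% against 8.95% in replicate 2. Of the members 6 fell, where 6.14% of 11416 genes did, and 1 rose, where 9.60% did (15.7% in either direction). DESeq2 called 1 member, where it called 602 of 9635 genes. The fit without the block also called 1, where it called 916 of 11416 genes. Those that fell were Ube2c (81.0 and 37.5 against 110 and 75.5 CPM, log2 -0.60, SE 0.11), Cenpa (86.1 and 62.4 against 113 and 91.6 CPM, -0.42), Birc5 (77.4 and 43.7 against 91.9 and 68.7 CPM, -0.36), Cdca8 (-0.40), the kinetochore motor gene Cenpe (-0.92) and Ckap2l (-1.05). The member that rose was Cks2, at 132 and 92.2 CPM against 85.0 and 78.9 CPM (0.50, SE 0.092, adjusted p = 0.000716 in edgeR), without overlap of the classes. Overlap was absent for 9 of the 40 members and 53.9% of all genes tested. Cks1b, the paralogue of Cks2, had a log2 fold change of -0.18 that missed the threshold. Of 59 other mitotic genes 5 fell and 0 rose, the chromatin genes Hmgb2 (-0.40), Lmnb1 (-0.43) and H2afx (-0.40) among those that fell, and of 50 replication genes 8 fell and 0 rose. Of 20 histone genes 3 fell, Hist1h2ap (-0.90) among them, and 2 rose (median 0.11). Of 18 inhibitors and quiescence genes 6 rose, among them Cdkn1a (1.39) and Btg2 (0.62), and 3 fell. Neutrophil markers were at 911 and 1255 CPM with either gene and at 1699 and 2789 CPM without. Without the cells rich in other types' markers the mean log2 ratio was -0.259. At that setting 7 members fell and 1 rose, where 807 and 1200 of 11310 genes did. Of 16 immediate early and heat shock genes 14 rose (median 0.59), and the mitochondrial share was 3.70% and 3.75% against 3.06% and 2.88%. The part of these genes and of the mitochondrial share in the result was not tested. Without the 8% deepest cells the module log2 ratio was 0.14 and -0.19. At that setting 2 members fell and 1 rose, where 781 and 1117 of 11288 genes did.

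**Figure D4:**
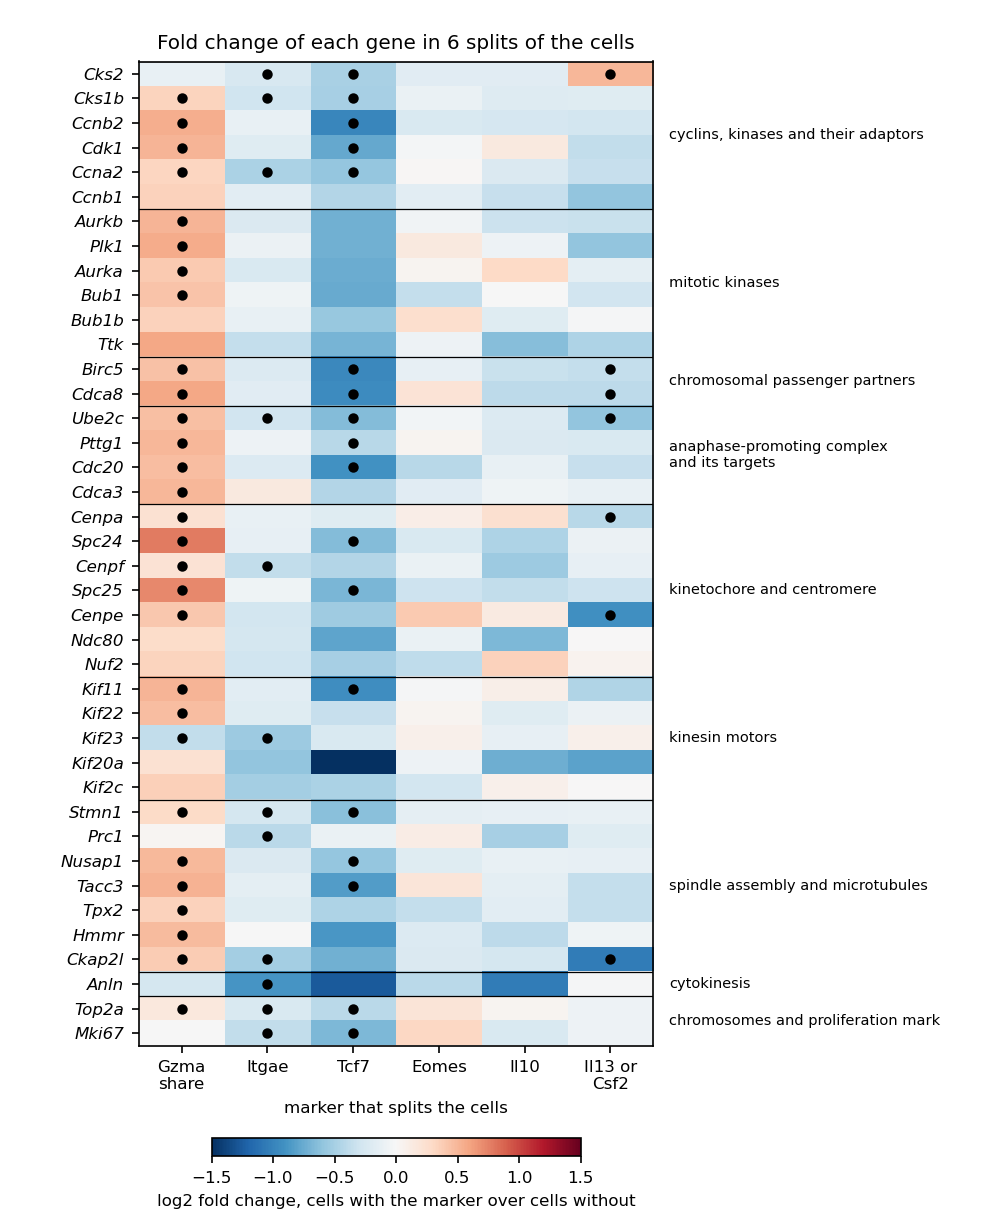
Log2 fold change from edgeR of each of the 40 genes (rows, grouped by role) between cells with and without each marker (columns), red for higher and blue for lower with the marker, with a black dot where the adjusted p is under 0.05. Dots fill 29 rows of the Gzma column, 12 of the Itgae, 18 of the Tcf7, 7 of the Il13 or Csf2 and 0 of the Eomes and Il10 columns.

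To see which other genes go with the module in a cell, mitotic-high cells (2414 and 1296) were compared with cells without a module UMI (5986 and 5884), with the 40 members left out of the table. Of 10548 genes tested in edgeR, 2406 rose (22.8%) and 2009 fell (19.0%), 41.9% in all. All 59 other mitotic genes rose, with a median log2 fold change of 3.49 against -0.03 over all genes. Among them were the separase gene Espl1 (10.6 and 11.4 against 0.223 and 0.113 CPM), Nek2 (21.4 and 21.8 against 0.445 and 0.453 CPM) and the chromokinesin gene Kif4 (34.2 and 54.0 against 1.11 and 1.25 CPM). All 50 DNA replication genes rose too (median 2.10). Rrm2, the small subunit of ribonucleotide reductase, was at 744 and 820 against 26.3 and 29.6 CPM, Tk1 at 144 and 186 against 10.9 and 9.63 CPM and Cdc6 at 32.0 and 39.5 against 1.78 and 2.27 CPM. Of 21 replication-dependent histone genes 19 rose and 1 fell, with Hist1h1b at 158 and 227 against 4.79 and 8.27 CPM. These transcripts lack a poly(A) tail in their main form, so their level in a poly(A)-primed library is a partial reading.

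The activators of the module were among the genes that rose. Foxm1 was at 19.2 and 28.6 CPM against 1.11 and 1.47 (log2 fold change 4.21, SE 0.29), Mybl2 at 23.1 and 30.6 against 1.45 and 1.81 CPM (4.06, SE 0.26) and the repressor gene E2f8 at 25.3 and 22.8 against 0.780 and 1.25 CPM (4.60). In all 15 of 22 DREAM and MuvB regulators rose and 1 fell. The E-type cyclin genes Ccne1 (2.38) and Ccne2 (3.61), Cdk2 (2.17) and Cdk4 (1.11) rose. Of 17 inhibitor and quiescence genes 11 fell, such as Btg1 (1696 and 1490 against 3669 and 3771 CPM, log2 -1.19), but the INK4 inhibitor genes Cdkn2c (119 and 138 against 44.0 and 44.4 CPM, 1.57) and Cdkn2a (108 and 100 against 37.1 and 36.9 CPM, 1.54) rose. Among genes that reached 50 CPM in the class where they were higher, the glycosylase gene Neil3 (46.8 and 62.3 against 1.23 and 0.906 CPM, 5.67), Esco2 (5.18), Sgo1 (5.13), Pbk (5.10), Knl1 (5.10), Pclaf (961 and 1125 against 34.6 and 37.8 CPM, 4.88) and Shcbp1 (4.85) were in the 10 largest rises.

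Over all depths most effector and residency genes were lower in mitotic-high cells. All 11 type 1 helper genes fell, such as the chemokine gene Ccl4 (2167 and 2045 against 4272 and 4986 CPM, log2 -1.09) and the homeobox gene Hopx (114 and 82.0 against 260 and 223 CPM, -1.24). Of 11 cytotoxic genes 6 fell and 2 rose, with the chemokine gene Ccl5 at 17702 and 13349 against 35541 and 38197 CPM (-1.22), Fasl (-0.88) and the perforin gene Prf1 (-0.52) among those that fell. Of 13 residency genes 12 fell, among them Cxcr6 (338 and 324 against 706 and 632 CPM, -0.98) and Cd69 (-0.68), and of 10 inhibitory receptor genes 8 fell, with Lag3 at -0.99 and Ctla4 at -0.96. The survival genes Bcl2 (113 and 82.0 against 253 and 234 CPM, -1.25) and Il7r (-1.22) fell, whereas Myb, of the same progenitor list, rose by 2.56. Of 16 immediate early and heat shock genes 13 fell (Jun -0.99) and 2 rose, Hsp90aa1 (0.88) among them. Of the genes used for the splits, Tcf7 (25.1 and 22.3 against 51.3 and 46.8 CPM, -1.0), Il13 (-0.90), Itgae (193 and 172 against 273 and 269 CPM, -0.52), Il10 (-0.47) and Csf2 (-0.44) fell. Eomes had a log2 fold change of -0.09 (edgeR adjusted p = 0.574), and Gzma one of 0.07 (16348 and 16269 against 16165 and 15651 CPM), which was -0.21 without the 8% deepest cells and -0.01 with the class set at 3 or more module UMIs. From 5000 UMIs before thinning the cytotoxic list was 38036 and 39617 CPM in mitotic-high cells against 68991 and 67449 CPM without a module UMI. Itgae was detected there in 22.4% and 19.9% against 32.3% and 31.4% of cells. Below 2500 UMIs the list was 49271 against 44460 CPM in replicate 1 and 28948 against 40726 CPM in replicate 2. Itgae was then detected in 24.2% against 18.1% and in 13.2% against 14.9% of cells. These differences by depth were not tested.

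**Figure D5:**
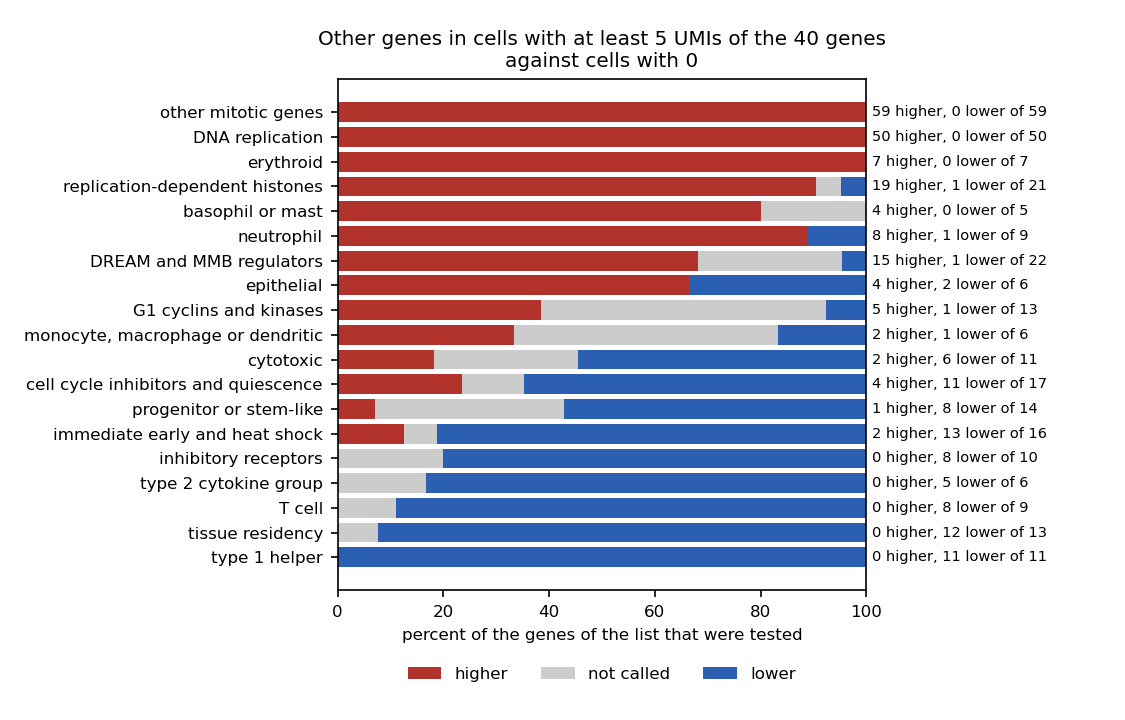
Percent of the tested genes of each list that were higher (red), lower (blue) or not called (grey) in edgeR in cells with at least 5 module UMIs against cells with 0, with the counts at the right. Over all depths, all 59 other mitotic and 50 replication genes are higher, all 11 type 1 helper genes are lower, and most markers of erythroid cells, neutrophils and basophils are higher too.

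Markers of other cell types moved with the class. Of 9 T cell genes 8 fell, among them Cd3e (-0.44), Cd3g (-0.56) and Cd4 (132 and 137 against 218 and 210 CPM, -0.64). Of 9 neutrophil markers 8 rose, and the list stood at 4061 and 6365 CPM in mitotic-high cells against 1498 and 2789 CPM in cells without a module UMI. The granule gene Ngp was at 536 and 1166 against 129 and 263 CPM (log2 2.14), the precursor gene Elane at 5.29 and 19.7 against 0.557 and 0.680 CPM (4.26), the basophil protease gene Prss34 at 84.1 and 125 against 5.35 and 26.5 CPM (2.87), and the globin genes Hbb-bs at 94.1 and 453 against 7.57 and 21 CPM (4.23) and Hba-a1 (4.65) rose with all 7 erythroid markers. From 5000 UMIs before thinning the neutrophil list was lower in mitotic-high cells, at 2623 and 5973 against 5772 and 7480 CPM. Below 2500 UMIs it was higher in them, at 3899 and 9802 against 218 and 702 CPM. The part of depth in this was not tested. Of the mitotic-high cells 2.78% and 3.09% carried at least 1% of their UMIs in 1 marker list of another cell type, against 0.685% and 0.918% of the cells without a module UMI. Of the neutrophil-marker cells 49.0% and 27.1% were mitotic-high. Without those cells, which are defined by these markers, Ngp, Prss34 and Hba-a1 had log2 fold changes of -0.28, -0.08 and -0.10, while the module log2 ratios of the 6 splits moved by less than 1 SD between libraries.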

How the data were processed

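Gene expression was measured in 2 pooled droplet libraries of sorted T cells. The values used are whole UMI counts per gene and barcode, deposited by the authors without normalization. Per the submitters' processing notes, Cell Ranger 3.1.0 and the mm10 build were used. The matrices of the matching hashtag libraries hold 0 hashtag features among their 31053 rows, so tissues are not compared here. The members, the other gene lists and the splits were chosen with earlier results of these data known.

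Cells were kept with at least 1000 UMIs, 500 genes and at most 10% mitochondrial UMIs, and with a UMI of Cd3e, Cd3d or Cd3g. No doublet caller was run. Each cell was thinned to 1500 UMIs without replacement (seed 20). Counts were summed per library and class, with 89427990 and 108082997 UMIs per library in all, and tested in edgeR 4.0.16 (limma 3.58.1, R 4.3.3) with TMM scaling, filterByExpr, glmQLFit and glmQLFTest, each library as a block because its classes are paired within it, and Benjamini-Hochberg adjustment over all genes at 0.05. Class shares have exact binomial intervals (Clopper-Pearson, 95%). The edgeR step was also run on simulated counts that gave every gene the same dispersion and both libraries the same gene shares. That run does not test the calls in the real libraries. All else was done with numpy 2.4.6 and pandas 2.3.3 in Python 3.11.15, intervals with scipy 1.17.1 and figures with matplotlib 3.10.9.

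Per split, the genes given in full were the members with a mean of at least 50 CPM and the 4 largest or 2 smallest absolute fold changes among those called, members against the majority direction, and up to 4 called genes of each other list with the largest changes. In the comparison of mitotic-high cells the 10 largest rises and falls among genes that reached 50 CPM in the class where they were higher were added. Further members and list genes were named after their values were seen. Alternatives were DESeq2 1.42.0, no low-count filter, no block, no thinning, thinning to 1000 UMIs, a second thinning, other classes and thresholds, leaving out each library, the 8% deepest cells or cells of other types, and, chosen after seeing the data, leaving out the smaller copies of shared barcodes.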

Additional observations from a re-analysis of the deposited data

Results flagged for a closer look

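The module's difference between cells with and without Il10 went opposite ways in the classes of Gzma. In Gzma-high cells the log2 ratio was 0.18 in replicate 1 (2244 against 1983 CPM) and 0.26 in replicate 2 (1715 against 1438 CPM). In Gzma-low cells it was -0.29 (1282 against 1568 CPM) and -0.27 (1058 against 1277 CPM). The means of the classes differed by 0.50. The positive cells numbered 150 and 82 in the Gzma-high class and 466 and 646 in the Gzma-low class. The difference was not tested, and the other 4 markers crossed with Gzma gave no such pattern in both libraries.

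Module UMIs were also present in the hashtag libraries, which the comparisons do not use. Their gene rows held 385 module UMIs of 157432 in replicate 1 (2446 CPM) and 532 of 208698 in replicate 2 (2549 CPM), where a count of 0 would allow up to 19.1 and 14.4 CPM. The expression libraries held 2588 and 2195 CPM over all their barcodes. Of the 40 members 38 and 39 had a UMI there, and 47.1% and 45.2% of the gene UMIs lay on the barcodes of kept cells.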

How the results depend on the processing

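Of the values for the comparisons under the alternatives, 111 stayed near the reported ones, 40 moved and 5 reversed; the cause was not tested. The number of members called was 29 with Gzma, and 9 with DESeq2 and 8 without the 8% of cells with the most UMIs. With Itgae it was 12, and 7 without a low-count filter, 1 with DESeq2, 33 (all higher) without thinning and 7 at 1000 UMIs. With Tcf7 it was 18, and 4 with DESeq2, 30 without thinning, 7 at 1000 UMIs and 8 without the deepest cells. With Eomes it was 0, and 1 without a filter, 40 without thinning and 1 with a second thinning. With Il10 it was 0, and 3 without thinning, 1 at 1000 UMIs and 1 without the smaller copies of shared barcodes. With Il13 or Csf2 it was 7, and 1 with DESeq2, 4 at 1000 UMIs and 3 without the deepest cells.

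Same-numbered classes come from the same library, so the pairing is given by design. Without the replicate block 5 members were called with Gzma, 0 with Itgae, 0 with Tcf7, 0 with Eomes, 0 with Il10 and 1 with Il13 or Csf2.

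The module log2 ratio without thinning was 0.22 with Itgae, -0.23 with Tcf7, 0.51 with Eomes and 0.27 with Il10. Without thinning the classes are set on all UMIs, so deeper cells enter the positive classes. At 1000 UMIs it was -0.20 with Itgae, -0.48 with Tcf7 and -0.32 with Il10, and with a second thinning -0.18, -0.52 and -0.25. Without the deepest cells it was 0.061 with Gzma, -0.32 with Itgae, -0.40 with Tcf7, 0.011 with Eomes and -0.023 with Il13 or Csf2. Leaving out a replicate leaves no residual degrees of freedom, hence no calls. The ratio then ranged from 0.19 to 0.36 with Gzma, -0.25 to -0.23 with Itgae, -0.59 to -0.53 with Tcf7, -0.08 to -0.02 with Eomes, -0.24 to -0.20 with Il10 and -0.41 to -0.13 with Il13 or Csf2.

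The share of cells with a module UMI was 60.6% over both libraries, and 48.0% without Stmn1, Cks1b, Cks2 and Pttg1, 83.3% without thinning, 52% at 1000 UMIs and 58.7% without the deepest cells. The share with at least 5 was 12.3%, and 23.6% without thinning. By library these ranged from 60.3% to 60.8% and from 8.73% to 15.8%.

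Over all genes the calls fell from 5231 to 1706 with DESeq2 in the Gzma split, from 2742 to 855 in the Itgae split, from 913 to 292 in the Tcf7 split, from 1086 to 239 in the Eomes split, from 826 to 239 in the Il10 split, from 1797 to 602 in the Il13 or Csf2 split and from 4415 to 1529 for mitotic-high cells, which had 2810 without the deepest cells. Without the block there were 3418, 1124, 211, 379, 277 and 916 in the 6 splits.

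Single genes turned sign as follows. Without the deepest cells Top2a with Gzma was -0.066 and mitotic-high Gzma -0.21 (log2), and Birc5 with Il13 or Csf2 0.028. Without thinning Cks1b was 0.29, Ube2c 0.29, Stmn1 0.23, Top2a 0.21 and Tuba1b 0.12 with Itgae, H2afz 0.17 with Eomes and 0.089 with Il10, Cdc25b 0.10 with Il10, and Defa24 4.61 in mitotic-high cells, against -2.69. Without cells of other types Ngp was -0.28, Prss34 -0.080 and Hba-a1 -0.10 there. With 3 or more UMIs as the class, Gzma was -0.0079 and Eomes 0.017.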
